A study of Mus musculus with 55 samples.

Results

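Mid1 was 1 of 19938 genes measured on the arrays and is described here across 12 groups of mouse cerebellum. It was read by the 1 probe set that carries its symbol (probe set 10603208, gene identifier 17318), out of 35557 in the table. Mid1 was chosen by its own measured levels: it was the 1 gene of 14950 tested (0.00669%) that passed in wild type at the low dose, so that difference is a description here and supports nothing. The cerebella came from C57Bl/6 pups at postnatal day 22, after subcutaneous injections each day from day 4 to day 21. Treated pups received chlorpyrifos oxon (CPO), which is formed in the body out of the insecticide chlorpyrifos and inhibits acetylcholinesterase, at 0.35 or 0.5 mg/kg/day. Control pups received the vehicle, dimethyl sulfoxide.

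The lines were labelled tgHuPON1R192 (R192) and tgHuPON1Q192 (Q192), which carry a human paraoxonase 1 transgene in its arginine or glutamine form, Pon1-/- (KO) and Pon1+/+ (WT). Paraoxonase 1 is an esterase that hydrolyses CPO. Vehicle, 0.35 and 0.5 were measured on 4, 5 and 5 arrays in R192 and also in Q192, on 4, 5 and 3 in KO, and on 6, 6 and 3 in WT. The sources used here do not say which promoter drives the transgene, or whether the transgenic mice also lack mouse Pon1. A line can differ from another in more than its transgene or its Pon1 allele, and such differences cannot be told apart. Nothing in the labels says that the arrays are separate animals, so p-values measure the spread between these samples, which may be technical.

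Mid1 encodes a ubiquitin ligase of the tripartite motif family that binds microtubules. Together with the adaptor encoded by Igbp1 (alpha4) it marks the catalytic subunit of protein phosphatase 2A for degradation, and in humans loss of MID1 causes X-linked Opitz syndrome, a disorder of midline structures that can include the cerebellar vermis. In C57BL/6 mice the gene crosses the pseudoautosomal boundary of the X chromosome. Its first exons are found only on X, while its last exons lie in the region that X and Y share and exchange in male meiosis.

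The gene table placed Mid1 on chromosome X and a pseudogene, Mid1-ps1, on chromosome Y. The pseudogene had no probe set of its own, and the sources used here do not say where the probes of Mid1 lie, so RNA from the Y copy cannot be told apart from that of Mid1. A non-coding transcript, G530011O06Rik, lies within the span of Mid1 and runs on the opposite strand, and the promoter table gave it a start on X and another on Y. The pair of start windows is shown because RNA from either start could bear on the values of this transcript. They are RefSeq sequences of build GRCm38.p6, read on the minus strand from 250 bases before to 50 bases after the start, with capitals for bases that differ or lie outside the aligned stretch. The X window is chrX:169978868-169979167 and the Y window is chrY:90755001-90755300.
G530011O06Rik start on X: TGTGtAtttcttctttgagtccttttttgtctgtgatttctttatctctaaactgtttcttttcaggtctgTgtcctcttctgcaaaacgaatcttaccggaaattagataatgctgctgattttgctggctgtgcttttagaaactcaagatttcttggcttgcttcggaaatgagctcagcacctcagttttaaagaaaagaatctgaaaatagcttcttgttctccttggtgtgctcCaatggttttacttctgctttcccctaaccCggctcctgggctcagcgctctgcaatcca
G530011O06Rik start on Y: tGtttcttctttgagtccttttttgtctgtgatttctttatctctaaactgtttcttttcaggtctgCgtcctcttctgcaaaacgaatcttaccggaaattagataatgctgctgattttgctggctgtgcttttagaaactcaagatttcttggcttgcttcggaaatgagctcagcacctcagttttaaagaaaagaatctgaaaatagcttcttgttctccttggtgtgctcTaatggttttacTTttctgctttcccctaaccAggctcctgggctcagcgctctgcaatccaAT
Of 298 aligned columns 292 were identical, 4 held different bases and 2 held a gap. Most of each window lies before the start, and neither the transcripts nor the probes were compared. The annotation gives the probe set to 1 symbol, so which copy it reads, or whether it reads both, cannot be told here.

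Some arrays went against their labels or stood apart. Pon1 averaged 10.08 ± 0.19 on the log2 scale (SD, n = 12) in arrays labelled KO, against 5.19 ± 0.24 (n = 15) in WT, the opposite of what the label states, and it was 10.13 in R192 and 10.10 in Q192. The sources do not place its probes inside or outside the disrupted stretch. Arrays labelled KO, KO vehicle, KO 0.35 and KO 0.5 therefore name arrays by their label alone, as does WT, whose Pon1 lay below the filter on low levels (6.44). The doubt attaches to each direction taken from either line. Xist, the RNA that silences an X chromosome in females, was between 11.06 and 11.33 in 3 arrays and at most 5.99 in the other 52. In these 3 the Y-linked genes Kdm5d, Uty and Eif2s3y were at most 5.62, 4.80 and 4.83, against at least 8.68, 9.23 and 9.73 in the others. They were WT 0.35 replicates 1 and 2 and KO vehicle replicate 4. KO 0.35 replicate 5 shares the number in its array description with R192 arrays, and its expression lay with the transgenic lines, as described below.

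Mid1 was expressed at a log2 level of 8.68 on average, above that of 67.7% of genes on the array. Its levels split by line. In R192 it was 8.15 ± 0.18 and in Q192 8.09 ± 0.21 (SD, n = 14 each), against 9.003 ± 0.34 (n = 12) in arrays labelled KO and 9.45 ± 0.74 (n = 15) in WT. The highest of the 28 transgenic arrays had 8.51, and 26 of the 27 arrays labelled KO or WT lay above it. The 1 array below was KO 0.35 replicate 5, at 8.11.

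In R192 the 4 vehicle arrays had Mid1 levels of 8.46, 8.16, 8.22 and 8.23. At 0.35 the 5 arrays had 7.82, 8.18, 7.91, 8.04 and 8.41. At 0.5 they had 8.11, 8.16, 8.14, 8.23 and 7.96, so the 3 treatments overlapped and the whole line spanned 0.65 on the log2 scale.

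In Q192 the vehicle arrays had 8.10, 7.91, 7.99 and 8.09. At 0.35 they had 7.80, 8.21, 8.36, 8.51 and 8.43, and at 0.5 they had 7.88, 7.94, 8.09, 7.95 and 8.02. The array at 7.80 was the lowest of all 55 and shared its group with the highest transgenic array, and the vehicle and 0.5 arrays lay between those extremes.

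In arrays labelled KO the vehicle arrays had 9.11, 9.21, 9.18 and 9.31, the last of these being the array of high Xist. At 0.35 they had 8.79, 8.91, 9.35, 8.98 and 8.11, and at 0.5 they had 8.92, 9.29 and 8.88. Without replicate 5 the 0.35 arrays ran between 8.79 and 9.35 and overlapped the vehicle arrays, and replicate 5 alone lay in the range of the transgenic lines.

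In WT the 6 vehicle arrays ran between 8.70 and 9.75 with a median of 8.99. The 6 arrays at 0.35 ran between 9.22 and 11.002 with a median of 10.21, and the 3 at 0.5 had 8.89, 9.21 and 8.52. Of the arrays at 0.35, 5 lay above the highest of all other arrays in the series (9.75), and the remaining one, replicate 5, lay among the WT vehicle arrays.

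**Figure D1:**
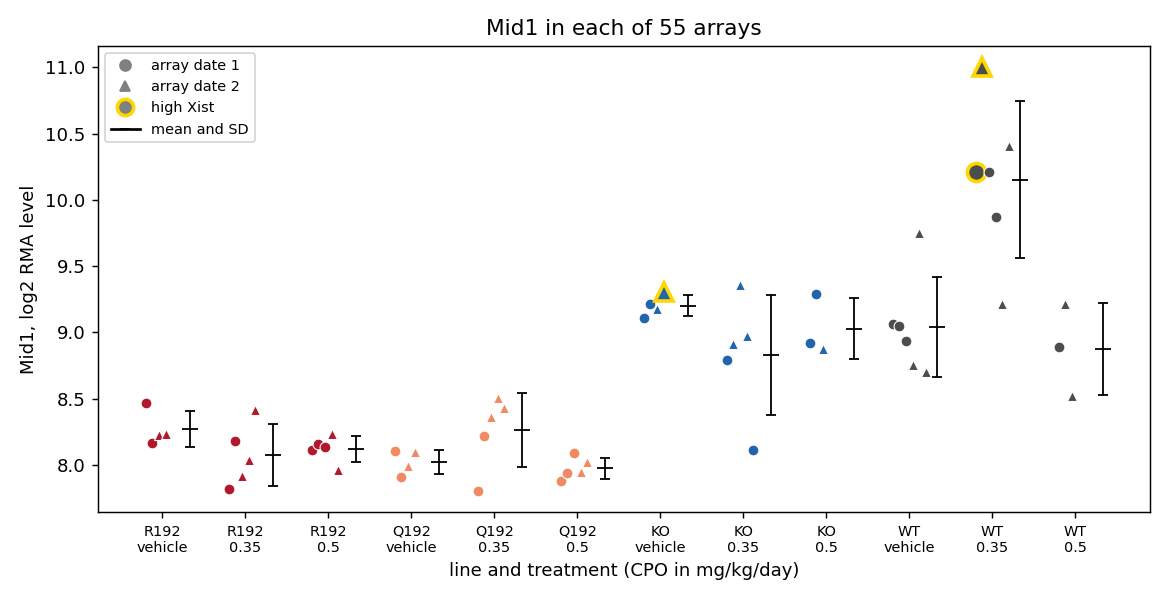
Log2 level of Mid1 in each of the 55 arrays, by line and by treatment in mg/kg/day of CPO, with circles for array date 1, triangles for array date 2, a gold rim for the 3 arrays of high Xist, and the group mean with its SD in black. The R192 and Q192 arrays lie at or below 8.51, the arrays labelled KO and WT lie above that level except KO 0.35 replicate 5 at 8.11, and the WT 0.35 arrays reach 11.002.

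Ordered by mean, WT 0.35 came first at 10.15 and KO vehicle next at 9.20, a step of 0.95 that exceeded the larger SD of the pair (0.59). WT vehicle (9.04), KO 0.5 (9.03), WT 0.5 (8.87) and KO 0.35 (8.83) followed KO vehicle, and no neighbours among these 5 differed beyond their SD. A step of 0.56 then led to R192 vehicle at 8.27, larger than the SD of 0.45 in KO 0.35. Below it came Q192 0.35 (8.26), R192 0.5 (8.12), R192 0.35 (8.07), Q192 vehicle (8.02) and Q192 0.5 (7.97), again with no neighbours that differed beyond their SD.

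The lines were compared on arrays outside the contrast of WT 0.35 with WT vehicle. The line split was also known when Mid1 was taken up, so its p-values and ranks between lines are not independent of that knowledge. Mid1 was lower in both transgenic lines than in arrays labelled KO, on the mean of the 3 treatments. The log2 difference was -0.93 for Q192 (SE 0.125, 95% interval -1.19 to -0.68, limma adjusted p = 2e-06), a level 1.91-fold lower. For R192 it was -0.85 (SE 0.124, interval -1.10 to -0.60, limma adjusted p = 1.72e-05), a level 1.81-fold lower. Of all genes tested 0.401% passed between Q192 and arrays labelled KO and 5.61% between R192 and arrays labelled KO, and Mid1 ranked 12 and 10 by p among them. Without KO 0.35 replicate 5 the count of genes that passed between R192 and arrays labelled KO was 2314 in place of 839.

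Without KO 0.35 replicate 5 these differences were -0.99 (adjusted p = 1.94e-07) and -0.92 (adjusted p = 1.39e-06). They were -0.93 and -0.85 without the arrays of high Xist. On array date 1 alone they were -0.91 (adjusted p = 0.00056) and -0.76 (adjusted p = 0.0189). On date 2 alone they were -0.91 and -0.91 but missed the threshold (adjusted p = 0.275 and 0.0572).

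Between the transgenic lines Mid1 did not pass. The difference R192 minus Q192 was +0.08 (SE 0.120, interval -0.16 to 0.32, limma adjusted p = 0.826), where 0.0736% of genes passed.

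At 0.5 the WT arrays lie outside the contrast that chose the gene. The Q192 0.5 arrays ran between 7.88 and 8.09 and the R192 0.5 arrays between 7.96 and 8.23, against 8.52 to 9.21 in WT 0.5, with no overlap. An exact permutation test gave p = 0.0357 for each line, the smallest that 5 and 3 arrays allow. After Benjamini-Hochberg adjustment, with arrays labelled KO at 0.5 included, this test gave 0.0536. The log2 difference was -0.85 for Q192 (SE 0.232, interval -1.32 to -0.38, limma adjusted p = 0.264) and -0.71 for R192 (SE 0.232, interval -1.18 to -0.24, limma adjusted p = 0.815), so neither passed over all genes, where 0.107% and 0.1% did. Arrays labelled KO at 0.5 differed from WT 0.5 by +0.20 (SE 0.259, interval -0.32 to 0.72, limma adjusted p = 0.68), where 0.221% of genes passed.

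Over the 3 treatments the lines stood below WT by -1.26 for Q192, -1.18 for R192 and -0.32 for arrays labelled KO on the log2 scale. These values contain the WT 0.35 and vehicle arrays and are given as a description, where 0.455%, 0.87% and 0.375% of all genes passed.

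**Figure D2:**
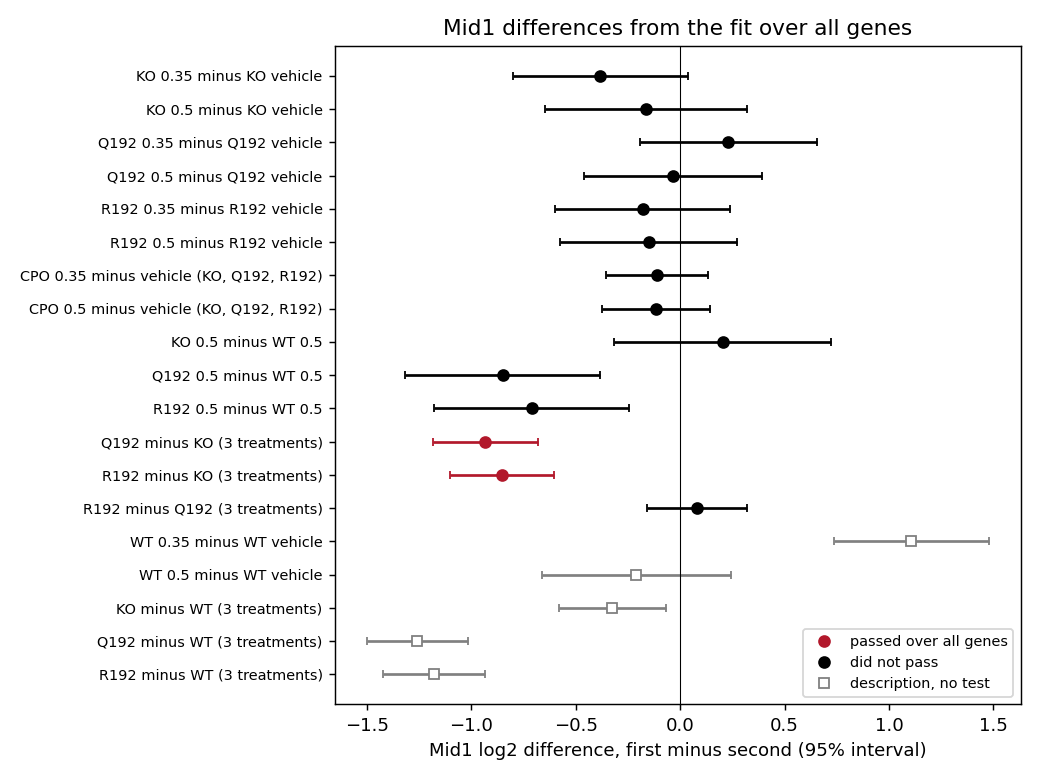
Log2 differences of Mid1, the first group named minus the second, as points with 95% intervals from the fit over all genes, in red where Mid1 passed over all genes, in black where it did not, and as open grey squares where the contrast holds arrays that chose the gene. Q192 and R192 lie 0.93 and 0.85 below arrays labelled KO, and the 8 dose contrasts outside WT have intervals that include 0.

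In R192, Q192 and arrays labelled KO, Mid1 did not pass in any contrast of CPO with vehicle. The WT contrasts got no test. In R192 the log2 difference from vehicle was -0.18 at 0.35 (interval -0.60 to 0.24, limma adjusted p = 0.924) and -0.15 at 0.5 (interval -0.58 to 0.27, limma adjusted p = 1). In Q192 it was +0.23 at 0.35 (interval -0.19 to 0.66, limma adjusted p = 0.999) and -0.04 at 0.5 (interval -0.46 to 0.39, limma adjusted p = 0.957). Arrays labelled KO differed by -0.38 at 0.35 (interval -0.80 to 0.04, limma adjusted p = 0.66) and -0.16 at 0.5 (interval -0.65 to 0.32, limma adjusted p = 0.73). The value at 0.35 in arrays labelled KO was -0.20 without replicate 5. With 1 array left out at a time, the value at 0.5 ran between -0.30 and -0.027 in arrays labelled KO and between -0.18 and -0.058 in R192.

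On the mean of these 3 lines the difference from vehicle was -0.11 at 0.35 (interval -0.36 to 0.14) and -0.12 at 0.5 (interval -0.37 to 0.14). These intervals leave room for changes of either sign. In each of these 8 contrasts limma called 0 genes (0%), with between 152 and 1974 genes at an unadjusted p under 0.05. With array quality weights Q192 0.5 minus vehicle called 629 genes. Differences of the dose effects between these lines did not pass either, in 6 tests added after the data were seen. This does not show that the dose effects were alike. The largest was Q192 minus arrays labelled KO at 0.35 (+0.61, SE 0.297, limma unadjusted p = 0.0446, adjusted p = 0.679). Without KO 0.35 replicate 5 it was +0.44 (limma unadjusted p = 0.138).

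In WT at 0.35 Mid1 was higher by 1.11 on the log2 scale (SE 0.186, interval 0.73 to 1.48), a level 2.15-fold that of vehicle. This is the contrast that singled the gene out, and nothing more is read from it. The single call was itself not fixed: the contrast called 0 genes without the arrays of high Xist, with the Xist level as a covariate or with the brainstem marker mean as a covariate, so that Mid1 did not pass there. It called 372 genes without the number correlation and 2043 on date 2 alone. At 0.5, where 1.04% of all genes passed, the difference from the same vehicle arrays was -0.21 (interval -0.66 to 0.24). Of the 3 arrays at 0.5, those at 8.89 and 9.21 lay within the range of the vehicle arrays. The dose effect at 0.35 minus that of WT was -1.29 in R192, -0.88 in Q192 and -1.49 in arrays labelled KO on the log2 scale, again as a description because each contains that contrast.

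Xist was high in 2 of the WT 0.35 arrays. Marker means of several cell types differed on average between WT 0.35 and WT vehicle, although 0 members of any cell type list passed there. The part of Xist and of these markers in the Mid1 difference was not tested beyond the values that follow. Replicates 1 and 2, the arrays of high Xist, had 10.21 and 11.002, and the 4 others averaged 9.93 ± 0.52 (SD) and ran between 9.22 and 10.40. Without the arrays of high Xist the difference from vehicle was +0.88, and with the Xist level as a covariate it was +0.97. KO vehicle replicate 4, also high in Xist, had 9.31, against 9.11 to 9.21 in the other 3 arrays of its group.

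The mean of 26 brainstem and midbrain neuron markers was 7.41 ± 0.42 (SD, n = 6) in WT at 0.35, with arrays between 6.84 and 7.74, against 7.78 ± 0.31 (n = 6) in WT vehicle, with arrays between 7.26 and 8.14. Replicates 1 and 2 at 0.35, the arrays of high Xist, had 6.91 and 6.84, and the others at that dose ran between 7.63 and 7.74. With the brainstem mean as a covariate the Mid1 difference was +1.00. Granule neurons make up most of the cells of the cerebellum. In WT at 0.35 the mean of 21 of their markers was highest in replicates 1 and 2, at 11.38 and 11.27. Its average was 11.03 ± 0.29 in WT at 0.35, with arrays between 10.61 and 11.38, against 10.67 ± 0.66 in vehicle. The vehicle arrays ran between 9.48 and 11.44 and enclosed those at 0.35. The log2 difference was below 0 for 21 of 21 myelin markers (median -0.40) and for 20 of 20 microglia markers (median -0.25), none of which passed, where the median over all genes was -0.01. In bulk tissue, fewer cells of a type and less RNA per cell cannot be told apart. By array date the Mid1 difference was +1.09 on date 1 and +1.17 on date 2.

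Averaged over all arrays of a line, the brainstem and granule means lay closer, but most markers of a list shifted in the same direction. The brainstem mean was 7.74 in R192 and 7.82 in Q192, against 7.63 in arrays labelled KO. In vehicle arrays alone it was 7.77 and 7.82, against 7.49. Granule markers averaged 10.67 and 10.72, against 10.86. Over all genes the median difference from arrays labelled KO was 0.01 in both lines. Against arrays labelled KO, 20 of 21 granule markers were lower in Q192 (median -0.12) and 21 of 21 in R192 (median -0.19). Brainstem markers were higher for 25 of 26 in Q192 and 21 of 26 in R192. Myelin markers were higher for 21 of 21 and 14 of 21, and microglia markers for 19 of 20 in both. With the brainstem mean as a covariate Mid1 differed by -0.87 in Q192 (limma adjusted p = 1.34e-05) and by -0.81 in R192 (limma adjusted p = 3.58e-05) from arrays labelled KO. The part of other cell types in the line difference was not tested beyond this.

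KO 0.35 replicate 5 was set against other genes that part the lines. After the data were seen, an axis was built from 186 genes, Mid1 left out, that passed between transgenic arrays and arrays labelled KO at vehicle and 0.5, with 0 at the mean of arrays labelled KO and 1 at the mean of the transgenic arrays. Replicate 5, which had no part in building the axis, lay at 1.16. The other 4 KO 0.35 arrays lay between -0.12 and 0.28, and the transgenic 0.35 arrays lay between 0.73 and 1.04. A place near 1 was not particular to the transgenic lines. The WT 0.5 arrays lay at 0.69, 1.11 and 0.71, WT vehicle replicate 4 at 0.98 and WT 0.35 replicate 5 at 0.84. KO vehicle replicate 4, at 0.58, lay beside the lowest transgenic array, Q192 vehicle replicate 1, at 0.57.

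**Figure D3:**
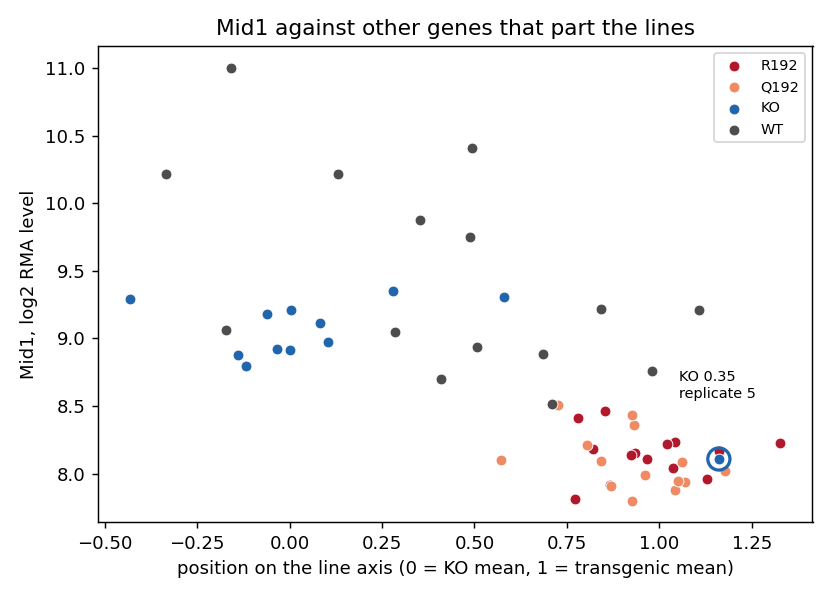
Log2 level of Mid1 against the position of each array on an axis of 186 other genes, scaled to 0 at the mean of the vehicle and 0.5 arrays labelled KO and to 1 at that of the transgenic ones, which fixes where those arrays lie on average. KO 0.35 replicate 5, ringed, lies at 1.16 and 8.11, among the R192 and Q192 arrays.

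Of the tested genes beside Mid1 on the X chromosome, the antisense transcript alone passed between the transgenic lines and arrays labelled KO, in the direction opposite to Mid1. Of the 10 measured genes nearest on the centromere side 7 passed the filter on low levels, and of the 2 measured on the telomere side, both within the span of Mid1, 1 did, G530011O06Rik. Hccs, which encodes the enzyme that attaches haem to cytochrome c and is the nearest measured neighbour, differed by +0.04 in Q192 and +0.06 in R192 from arrays labelled KO, and neither value passed. Msl3, a chromatin gene, differed by +0.04 and +0.11. None of the 7 genes on the centromere side passed in either comparison, and their differences lay between -0.06 and +0.18.

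G530011O06Rik was higher in the transgenic lines, opposite to Mid1. Its log2 level was 8.72 ± 0.49 in Q192 and 8.01 ± 0.32 in R192 (SD, n = 14 each), against 6.95 ± 0.53 (n = 12) in arrays labelled KO and 7.09 ± 0.37 (n = 15) in WT. In vehicle arrays it ran between 8.59 and 8.94 in Q192 and between 7.85 and 8.63 in R192. In KO vehicle it ran between 6.57 and 6.99. The Q192 and R192 arrays of all treatments ran between 7.45 and 9.54. Arrays labelled KO and WT ran between 6.33 and 7.76 without KO 0.35 replicate 5, so the ranges overlapped over all treatments.

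The log2 difference of G530011O06Rik was +1.78 for Q192 minus arrays labelled KO (SE 0.179, limma adjusted p = 1.09e-09) and +1.04 for R192 minus arrays labelled KO (SE 0.177, limma adjusted p = 0.000331). Without KO 0.35 replicate 5, which itself had 8.26, they were +1.89 and +1.18. On date 1 alone they were +1.36 (adjusted p = 0.0332) and +0.82 (adjusted p = 0.19), and on date 2 alone +2.10 (adjusted p = 3.2e-06) and +1.31 (adjusted p = 0.00244). The difference R192 minus Q192 was -0.73 (SE 0.171, limma adjusted p = 0.0958), and it passed without KO 0.35 replicate 5 (-0.71, adjusted p = 0.0266). At 0.5 Q192 exceeded WT by 1.65 (adjusted p = 0.0109), while R192 minus WT was +1.03 (adjusted p = 0.78). Its 6 dose contrasts outside WT lay between -0.26 and +0.28 and did not pass.

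**Figure D4:**
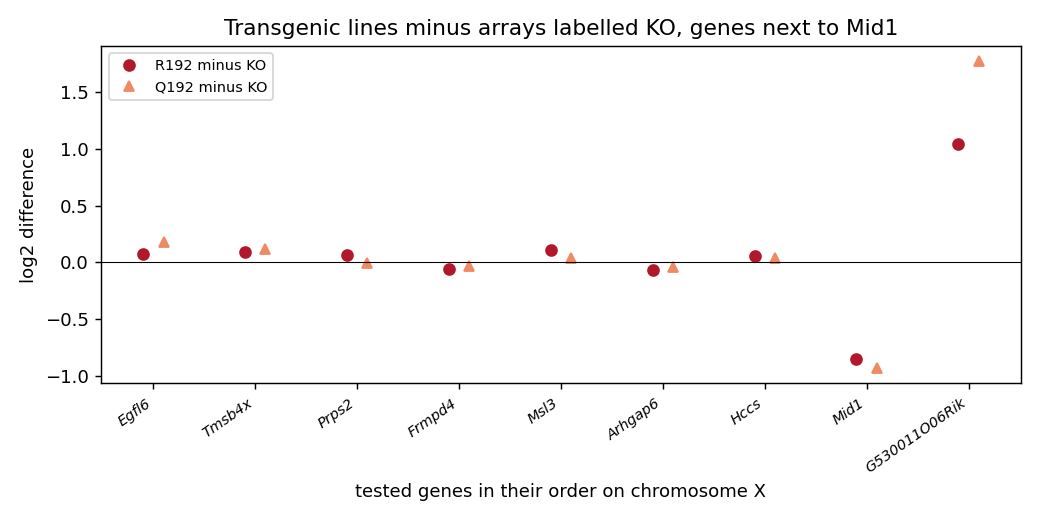
Log2 differences of R192 (circles) and Q192 (triangles) minus arrays labelled KO on the mean of 3 treatments, for Mid1 and the tested genes beside it in their order along chromosome X. The 7 genes before Mid1 lie between -0.06 and +0.18, Mid1 lies at -0.85 and -0.93, and G530011O06Rik at +1.04 and +1.78.

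Within lines the relation between both transcripts varied. Across arrays of 1 line the Pearson correlation of Mid1 with G530011O06Rik was 0.75 in WT (n = 15), 0.62 in Q192 (n = 14) and 0.20 in R192 (n = 14). In arrays labelled KO it was -0.43 (n = 12), and 0.65 without KO 0.35 replicate 5 (n = 11). These are descriptions, since arrays of a line share treatments, array dates and description numbers.

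**Figure D5:**
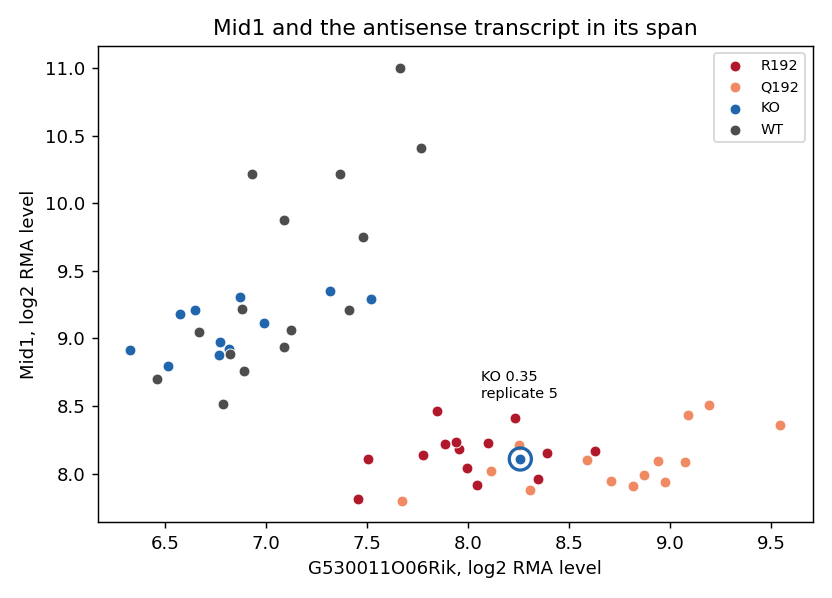
Log2 level of Mid1 against that of G530011O06Rik in each array, coloured by line, with KO 0.35 replicate 5 ringed. The transgenic arrays lie low in Mid1 and high in G530011O06Rik, and WT arrays with more Mid1 also hold more G530011O06Rik (r = 0.75, n = 15).

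Relatives and partners of Mid1 were counted in the same comparisons. Mid2, the closest paralogue and also X-linked, differed by +0.02 in Q192 and +0.03 in R192 from arrays labelled KO, and neither passed. Igbp1, which encodes the alpha4 adaptor, differed by +0.14 (limma adjusted p = 0.479) and +0.16 (limma adjusted p = 0.141). Among 9 tested relatives of the same tripartite motif subfamily, limma called 0 in Q192, where 0.401% of all genes passed and 1425 genes had an unadjusted p under 0.05. In R192, where 5.61% of all genes passed, 1 did, Trim9, a neuronal ubiquitin ligase gene, which fell by 0.23 (limma adjusted p = 0.0041).

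Of 35 tested genes for Mid1 partners, protein phosphatase 2A, mTOR and hedgehog signalling and related targets, 0 passed in Q192 and 5 in R192 against arrays labelled KO, where 5.61% of all genes passed. The kinase gene Mtor fell by 0.29 (limma adjusted p = 0.0067), Ppp2r1a, the scaffold subunit of protein phosphatase 2A, fell by 0.26 (adjusted p = 0.0406), its regulatory subunit gene Ppp2r5e fell by 0.14 (adjusted p = 0.0149) and Tsc2, an inhibitor of mTOR signalling, fell by 0.23 (adjusted p = 0.0303). The ribosomal protein gene Rps6 rose by 0.19 (adjusted p = 0.0116). When KO 0.35 replicate 5 was left out, 2 of the 35 were higher and 6 lower in R192, and 0 passed in Q192, while 15.5% of all genes passed in R192 and 0.522% in Q192. The median of the 35 was -0.02 in R192 and 0.01 in Q192, against a median of 0.01 over all genes in both.

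Among 7 tested X-linked genes that escape inactivation, Kdm5c, a histone demethylase gene, fell by 0.19 (limma adjusted p = 0.0273) and Car5b, a mitochondrial carbonic anhydrase gene, rose by 0.41 (adjusted p = 0.0342) in R192 against arrays labelled KO, and 0 passed in Q192. Arrays labelled KO include KO vehicle replicate 4, which was high in Xist, while R192 has no such array. The part of that array in these values was not tested. Of all genes 5.61% passed in R192 and 0.401% in Q192 against arrays labelled KO, beside which the next counts stand. Of the markers of cell types, microglia had 6 of 20 higher in R192, and the 6 were Fcrls (+0.54), Ly86 (+0.36), P2ry12 (+0.30), Tyrobp (+0.24), Aif1 (+0.20) and Siglech (+0.19). Purkinje cell markers had 2 of 12 lower in R192, Slc1a6, a glutamate transporter gene (-0.50), and Cacna1g, a calcium channel gene (-0.39). Among 14 markers of astrocytes and Bergmann glia, S100b (+0.23) and the water channel gene Aqp4 (+0.18) were higher and the bicarbonate transporter gene Slc4a4 (-0.22) lower, and none of the 21 granule neuron markers passed in R192. Without KO 0.35 replicate 5 the counts in R192 were 7 higher for microglia, 3 lower for Purkinje cells, 2 higher and 4 lower for astrocytes and 6 lower for granule neurons, while 15.5% of all genes passed in that setting. The part of these cell types in the Mid1 difference was not tested beyond the covariate above. In Q192 against arrays labelled KO 1 marker passed among all cell type lists, the brainstem and midbrain gene Pou4f1 (+0.34).

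The genes whose levels most resembled Mid1 across the 55 arrays were Mrpl20, a mitochondrial ribosomal protein gene (Pearson r = 0.76), Ccnl2, a cyclin gene (0.71), Dvl1, which carries Wnt signals (0.70), Mxra8 (0.67) and Ranbp9 (0.67). Of these 5, 4 lie on chromosome 4, where they are 4 consecutive measured genes in the gene table. Mrpl20 averaged 8.21 in R192 and 8.29 in Q192, against 9.33 in arrays labelled KO and 9.52 in WT. The most opposite were Hspa4l, a heat shock protein gene (-0.77), Rabl2 (-0.76), Ccdc91 (-0.75), Hdhd2 (-0.74) and Snord53, a small nucleolar RNA (-0.72). Hspa4l averaged 11.08 in R192 and 11.06 in Q192, against 10.54 in arrays labelled KO and 10.50 in WT. These correlations run across lines, which the 55 arrays fall into, and describe a shared split rather than a relation within a line.

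After group means were subtracted, the closest genes were Irf7, an interferon regulatory factor gene (r = 0.59), Olfr71 (0.55), Casz1 (0.54), Dok2 (0.47) and 3110082I17Rik (0.47). The most opposite were Elof1 (-0.65), Scrn3 (-0.59), Sbds (-0.58), Bloc1s5 (-0.53) and Trmt2b (-0.53). None of these 10 was among the 10 named for all arrays.

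Within groups Mid1 varied more than most genes. Its pooled SD within groups was 0.317 on the log2 scale, above that of 98% of genes tested, whose median was 0.131. By line the pooled SD was 0.168 in R192 and 0.182 in Q192, against 0.325 in arrays labelled KO and 0.475 in WT. Without KO 0.35 replicate 5 it was 0.194 in arrays labelled KO. In R192 the SD of Mid1 lay above that of 90.6% of genes and in WT above that of 98.6%.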

How the data were processed

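Affymetrix Mouse Gene 1.0 ST arrays, which summarise many short probes into 1 value per probe set, were read in 55 cerebellum samples. Per the submitters' processing notes the deposited values came from Affymetrix Expression Console 1.1 with RMA. The notes name no base, and the values the authors deposited, which ran from 1.15 to 14.80, were taken as log2 levels. Array medians lay between 7.37 and 7.54, and nothing further was normalised. The sources used here name no build for the array annotation, so the coordinates printed are those of the RefSeq promoter table (GRCm38.p6).

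Of 35557 probe sets 21789 had 1 gene symbol, and the GRCm38.p6 gene table held the identifiers of 21698, with 0 symbols changed. The probe set with the highest mean stood for a gene. Genes above the 25th percentile of level (6.44), without 3 sex-linked genes, gave 14950 genes. limma 3.58.1 in R 4.3.3 fitted 12 group means with array date (2 dates) as a covariate, the description number (36 numbers, of which 17 were on several arrays) as a correlated block (correlation 0.131), and a variance trend. Adjustment was by the Benjamini-Hochberg method over all genes tested in a comparison, and a gene passed under 0.05. The labels do not say what the number stands for. Figures and descriptions used Python 3.11.15.

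Mid1 and all lists were chosen with earlier results of these data known. Named genes were Mid1, Pon1, the sex-linked genes, up to 10 measured neighbours on either side, the 5 most and least correlated genes, Mid2, Igbp1 and list members that passed. The list of other pseudoautosomal genes had 0 tested members. Contrasts with WT 0.35 or WT vehicle arrays got no test. Leaving out WT arrays, leaving out KO 0.35 replicate 5 together with the arrays of high Xist, and list counts and the spread of Mid1 without KO 0.35 replicate 5 were added after seeing the data. On simulated data with independent noise, a fit without the number correlation recovered known differences. The correlated block of the main fit was not checked in this way. No pair among 104 within groups was identical. Same-numbered replicates of treated and vehicle groups correlated between -0.57 and 0.76 in their deviations, over 0.1 in 17 of 32 pairs. Replicates of different number were not set beside them, so this does not settle whether the numbers pair arrays. The main fit used no pairing. The number of arrays limits the precision.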

Additional observations from a re-analysis of the deposited data

Results flagged for a closer look

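Dixon's criterion was applied in 60 sets of 4 to 6 arrays and marked 4 arrays, where chance alone marks about 1 in 20. WT vehicle replicate 5 had a Mid1 level of 9.75, against 8.70 to 9.06 in the other 5 arrays of its group. Without it the difference between WT 0.35 and vehicle was larger, +1.23. KO vehicle replicate 4 had an Xist level of 11.26, against 5.52 to 5.82 in its group, and its Mid1 level was 9.31. Mid2 was 8.56 in R192 vehicle replicate 1, against 8.91 to 8.98 in its group. Igbp1 was 10.22 in Q192 0.35 replicate 4, against 10.52 to 10.57 in its group.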

How the results depend on the processing

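The 22 Mid1 differences were recomputed with 70 changed settings. Q192 and R192 stayed below arrays labelled KO in every setting (-0.87 to -0.99 and -0.76 to -0.92), and missed the threshold on array date 2 alone (-0.91, adjusted p = 0.275, and -0.91, adjusted p = 0.0572). Q192 0.5 minus WT 0.5 passed without KO 0.35 replicate 5 and the arrays of high Xist together (-0.87, adjusted p = 0.0472), a setting added after seeing the data. Its adjusted p lay between 0.0606 and 1 in the other alternatives over all arrays or a date. Under that setting the dose effect at 0.35 of arrays labelled KO minus that of WT was -1.05. Small differences turned sign, and the cause was not tested. On date 2 alone CPO 0.35 minus vehicle over R192, Q192 and arrays labelled KO was 0.044 and R192 minus Q192 was -0.00019. With the replicate block Q192 0.5 minus vehicle was 0.030, and the block changed no call. Leaving out 1 array at a time, Q192 0.5 minus vehicle ran from -0.076 to 0.0098, arrays labelled KO minus WT at 0.5 from -0.0091 to 0.34 and WT 0.5 minus vehicle from -0.34 to 0.0033, the ends past 0 coming without Q192 vehicle replicate 1 and WT 0.5 replicate 3. WT 0.35 minus vehicle ran from +0.95 to +1.31. Counts over all genes moved more than Mid1. Q192 against arrays labelled KO called 1495 genes with array quality weights and 13 on date 1 alone, and R192 against arrays labelled KO called 5401 and 10. Arrays labelled KO against WT at 0.5 called 33 genes, 203 without KO 0.35 replicate 5 and 2117 with array quality weights. WT 0.5 minus vehicle called 155, 489 without that array and 0 on either date alone. No other Mid1 probe set existed to try.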

Other observations

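Arrays that share a description number were no closer in Mid1 than others in WT. Over 7 such pairs the median difference was 0.79 on the log2 scale and the widest was 1.19, against a median of 0.36 over 26 pairs of different number. In R192 the median was 0.07 over 4 pairs that share a number, against 0.21 over 22 that do not, and in Q192 it was 0.14 over 5 pairs, against 0.14 over 21. In arrays labelled KO it was 0.12 over 3 pairs, against 0.29 over 16. With all lines together it was 0.14 over 19 pairs, against 0.22 over 85. Pairs within a group overlap in arrays and were not tested.

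After group means were subtracted, the correlation of Mid1 with G530011O06Rik was 0.77 in WT (n = 15), 0.75 in Q192 (n = 14), 0.11 in R192 (n = 14) and -0.38 in arrays labelled KO (n = 12), so in WT and Q192 it was present between arrays of the same treatment. The value in arrays labelled KO includes KO 0.35 replicate 5. Without that array the correlation before subtraction was 0.65 (n = 11), and it was not recomputed after subtraction. Over all 55 arrays, the correlation after group means were subtracted was 0.32 for Mid1 with Xist and -0.21 for Mid1 with the brainstem marker mean.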
